A study of Homo sapiens with 4 samples.

Results

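The NRF2 and glutathione antioxidant genes were compared between SB and SCt cells, both made from the SAS line of tongue squamous carcinoma; SB cells stably express an shRNA to AEG-1 (gene symbol MTDH) and SCt cells are the control. The list held 39 genes, chosen by name for their function: the regulators of NRF2 and genes for glutathione, thioredoxin, peroxiredoxin, aldo-keto reductase, NADPH and ferritin proteins. Through RefSeq accessions 36 of them were matched to 46 probes of an Agilent human array, and all 36 were among the 23484 genes tested. PRDX2, AKR1C2 and OSGIN1 were not matched and were not analysed here. On each of 4 arrays, SB RNA was labelled red and SCt RNA green. Both lines were selected for stable clones with puromycin (2 μg/ml for 14 days), and for SCt cells the labels name the vector pLKO.1 where the methods of the study name a scrambled shRNA. The labels call the 4 arrays biological replicates, and the methods of the study give 3 biological and 3 technical replicates for in vitro work, which does not match 4 arrays, so it is not known whether these came from separate cultures, and the p-values may measure only technical spread. The dyes were exchanged on 0 arrays and all arrays shared 1 slide, so a probe's preference for a dye and the effect of the shRNA cannot be told apart.

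NRF2, the product of NFE2L2, is a transcription factor that KEAP1 holds in the cytoplasm and marks for degradation. When oxidants or electrophiles modify KEAP1, NRF2 builds up, pairs with a small MAF protein and binds antioxidant response elements near genes that make glutathione, reduce peroxides and supply NADPH. In squamous carcinomas of the head and neck, mutations in NFE2L2, KEAP1 or CUL3 are a known way in which this response becomes constantly active.

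By limma 0 of the 36 genes had an adjusted p under 0.05, against 3.51% of all genes tested (825 of 23484; 156 without replicate 3, 332 without replicate 2, 495 without replicate 1 and 1544 without replicate 4). An unadjusted p under 0.05 was found for 6 of the 36 (16.7%), near the 18.1% among all genes tested. By the methods' t-test on the same values, 5 (13.9%) had an unadjusted p under 0.05, near the 13.7% of all genes tested, and 0 an adjusted one, as among all genes. The log2 ratio, SB over SCt and averaged over arrays, was above 0 for 20 genes and below 0 for 16, and with each array centred on its median in place of loess for 33 and 3. Without replicate 1 these counts were 16 and 20 after loess. Over all 4 arrays after loess, the median of the 36 was 0.01, the same as the median of all genes tested (0.01). Their means lay between −0.21 (CAT) and 0.34 (AKR1C3), and the limma 95% intervals between −0.34 and 0.63. Of the 36 genes, 9 had the same sign on all 4 arrays, 6 of them above 0 and 3 below.

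**Figure D1:**
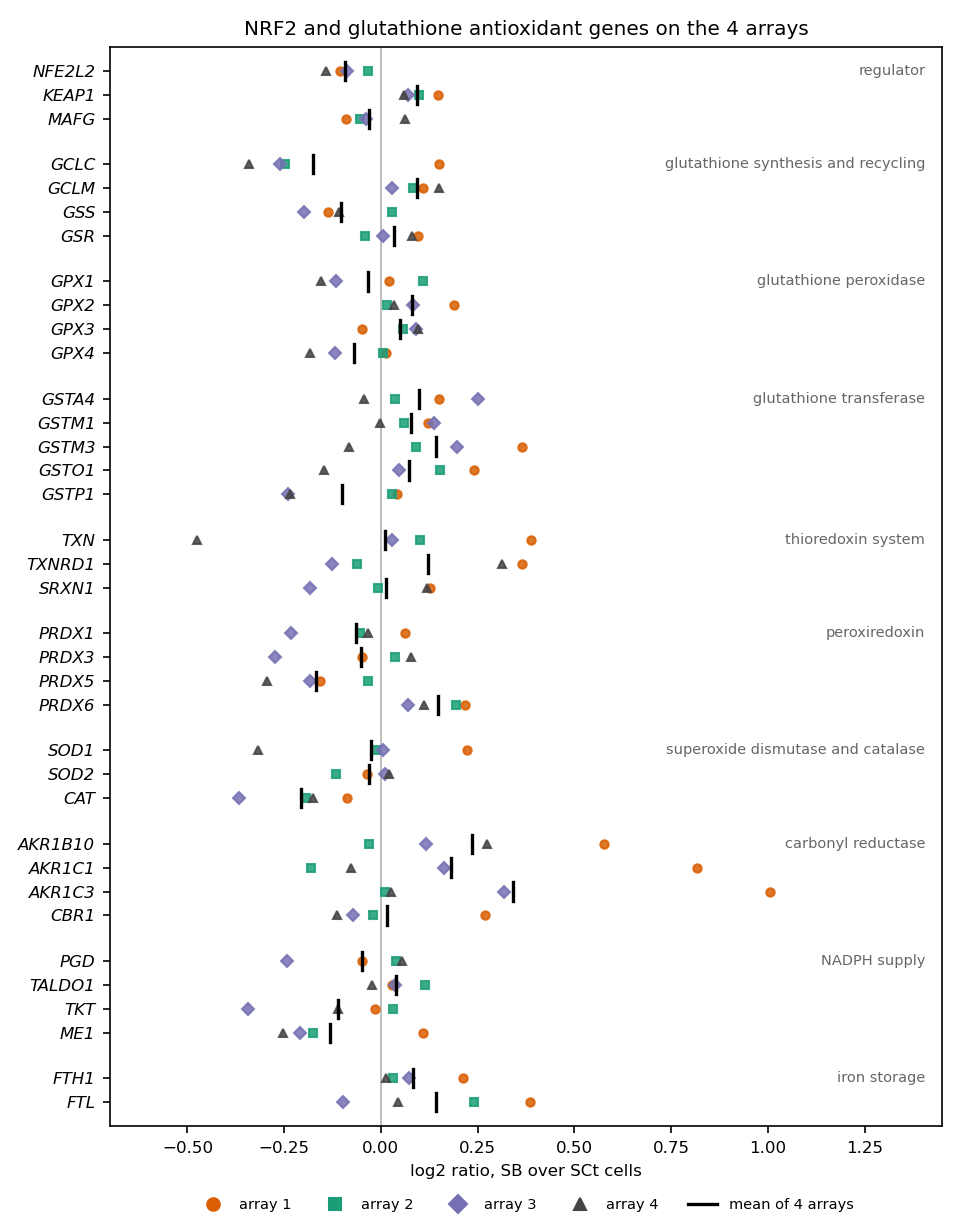
Log2 ratio of SB over SCt cells (x axis) for the 36 measured genes (y axis), grouped by role; each symbol is 1 of the 4 arrays and the black bar is their mean. Most genes scatter around 0, and the points of array 1 for AKR1B10, AKR1C1 and AKR1C3 lie at 0.58, 0.82 and 1.01.

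The labels were checked on AEG-1 (MTDH), the target of the shRNA. Its log2 ratios were −3.18, −3.01, −3.12 and −3.41 on arrays 1 to 4, all far below 0, with a mean of −3.18 ± 0.17 (SD, n = 4 arrays; limma, adjusted p = 5.19e-10). In deposited intensities, before any correction, AEG-1 read 1486 in SB cells (red) against 6348 in SCt cells (green) on array 1. On array 4 it read 1628 against 10924. The median signal was 733 in red against 362 in green on array 1, and 655 against 400.75 on array 4. These intensities therefore do not give the log2 ratio directly. The cell type was checked on marker genes. All 8 markers of squamous epithelium, from KRT5 to DSP, were well above background in both lines on all 4 arrays. Of 6 fibroblast markers 3 were, and COL3A1 and LUM were not well above background on any array. All 4 matched leukocyte markers (LYZ was not matched) and all 4 endothelial markers also had a probe well above background in both lines. Signal over background on this array therefore did not separate the epithelial markers from those of leukocytes and endothelium. The log2 ratios of the squamous markers lay between −0.28 and 0.14. As RNA came from whole cultures, fewer expressing cells and less RNA per cell cannot be told apart.

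Among the regulators, NFE2L2 had log2 ratios of −0.11, −0.03, −0.09 and −0.14 on arrays 1 to 4. All 4 values lay slightly below 0, with a mean of −0.09 ± 0.04 (SD, n = 4 arrays), a 95% interval of −0.21 to 0.03 and an adjusted p of 0.399 from limma. KEAP1, the adaptor that hands NRF2 to the CUL3 ubiquitin ligase, had 0.15, 0.10, 0.07 and 0.06. All 4 values lay slightly above 0, with a mean of 0.09 ± 0.04 (SD, n = 4 arrays), a 95% interval of −0.02 to 0.21 and an adjusted p of 0.385 from limma. KEAP1 was read by 10 spots per array, whose SD within an array was 0.03 to 0.05. Both intervals include 0, and under median centring the mean of NFE2L2 turned to 0.05 while that of KEAP1 was 0.17 and passed the threshold (limma, adjusted p = 0.0499). MAFG, a small MAF partner of NRF2, was read by 2 probes. The brighter had −0.09, −0.05, −0.04 and 0.06, and the other 0.00, 0.03, 0.11 and 0.05. Their means differed in sign, at −0.03 ± 0.07 and 0.05 ± 0.04 (SD, n = 4 arrays each).

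Of the enzymes that make and recycle glutathione, GCLM, the modifier subunit of the rate-limiting ligase, had log2 ratios of 0.11, 0.08, 0.03 and 0.15. They lay above 0 on all 4 arrays, with a mean of 0.09 ± 0.05 (SD, n = 4 arrays), a 95% interval of −0.03 to 0.21 and an adjusted p of 0.398 from limma. GCLC, the catalytic subunit of the same ligase, had 0.15, −0.25, −0.26 and −0.34. Array 1 thus stood on the other side of 0 from the rest, and the mean was −0.17 ± 0.22 (SD, n = 4 arrays; limma, adjusted p = 0.250). With replicate 1 left out it was −0.28, with the lowest adjusted p of its alternatives, which ran from 0.0536 to 0.574. GSS, glutathione synthetase, had a mean of −0.10 and GSR, which reduces oxidized glutathione, one of 0.03. None of the 4 passed the threshold, but under median centring GCLM (0.35; limma, adjusted p = 0.00298) and GSR (0.26; limma, adjusted p = 0.0138) did, and GSS turned to 0.03.

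TXNRD1, thioredoxin reductase, had log2 ratios of 0.36, −0.06, −0.13 and 0.31. Arrays 1 and 4 were high and arrays 2 and 3 slightly below 0, so the mean of 0.12 ± 0.25 (SD, n = 4 arrays; limma, adjusted p = 0.470) did not exceed this spread, and its 95% interval was −0.06 to 0.31. TXN, thioredoxin itself, ran from 0.39 on array 1 to −0.47 on array 4, around a mean of 0.01. Under median centring TXN (0.35; limma, adjusted p = 0.0440) and TXNRD1 (0.42; limma, adjusted p = 0.00710) passed the threshold. SRXN1, sulfiredoxin, which repairs overoxidized peroxiredoxins, had a mean of 0.01 as well.

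The antioxidant response element was looked for in the RefSeq promoters (GRCh38.p14) by its core, TGACNNNGC, on both strands. A window holds 300 bases, from 250 before to 50 after a gene's start, and the core can overlap the AP-1 site TGACTCA. The table held 42 windows of 32 of the 39 genes (none for GSS, GSR, PRDX1, PRDX6, SOD1, AKR1B10 and FTH1), and 12 windows, of 11 genes, had at least 1 core (28.6%), against 13.3% of all 35116 windows and 16.3% of 92 windows of a wider list of genes from the same pathways. The genes were KEAP1, GCLM, GPX2, GSTA4, GSTM1, GSTO1, GSTP1, TXNRD1, CBR1, PGD and ME1. In GSTP1 and ME1 a core also held the AP-1 site. The windows of AKR1C1, AKR1C2 and AKR1C3 had 0 cores, which says only that these letters are not in them. A match is a description of letters and not a binding site. The 4 promoters printed belong to KEAP1, GCLM and TXNRD1, described above, and to GSTP1, as an example of the overlap; capitals mark the core on either strand, and each is written 5′ to 3′ on the strand of its gene. KEAP1, at 1 of its 2 starts in the table (the other has 0 cores), lies at chr19:10502722-10503021 (minus strand), with cores starting 54 and 31 bases before the start. GCLM lies at chr1:93909381-93909680 (minus strand), with a core 34 bases before it. TXNRD1, at 1 of its 2 starts in the table, lies at chr12:104286782-104287081 (plus strand), with a core 102 bases before it (the other start has 2 cores). GSTP1 lies at chr11:67583562-67583861 (plus strand), with a core 66 bases before it.
KEAP1: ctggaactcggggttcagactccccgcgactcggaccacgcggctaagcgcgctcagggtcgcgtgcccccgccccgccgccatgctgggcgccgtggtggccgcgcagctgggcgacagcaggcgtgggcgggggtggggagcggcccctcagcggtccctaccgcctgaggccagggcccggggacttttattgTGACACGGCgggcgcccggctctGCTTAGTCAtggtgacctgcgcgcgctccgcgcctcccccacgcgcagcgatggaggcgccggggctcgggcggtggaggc
GCLM: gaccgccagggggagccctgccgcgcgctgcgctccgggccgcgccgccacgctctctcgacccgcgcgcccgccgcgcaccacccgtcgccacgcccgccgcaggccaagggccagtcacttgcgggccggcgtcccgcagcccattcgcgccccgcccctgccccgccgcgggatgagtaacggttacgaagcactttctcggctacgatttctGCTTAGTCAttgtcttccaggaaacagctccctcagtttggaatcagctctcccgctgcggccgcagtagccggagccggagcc
TXNRD1: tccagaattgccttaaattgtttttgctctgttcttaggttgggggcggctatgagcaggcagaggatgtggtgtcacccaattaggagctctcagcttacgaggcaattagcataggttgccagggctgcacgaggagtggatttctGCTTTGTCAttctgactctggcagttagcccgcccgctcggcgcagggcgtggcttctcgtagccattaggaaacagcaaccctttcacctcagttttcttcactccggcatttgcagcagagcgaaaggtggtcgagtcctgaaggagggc
GSTP1: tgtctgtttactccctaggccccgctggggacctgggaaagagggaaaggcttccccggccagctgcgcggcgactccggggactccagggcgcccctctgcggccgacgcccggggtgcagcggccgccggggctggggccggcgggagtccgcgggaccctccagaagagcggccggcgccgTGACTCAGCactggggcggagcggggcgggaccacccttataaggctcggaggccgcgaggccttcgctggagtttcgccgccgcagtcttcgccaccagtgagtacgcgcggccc
The log2 ratio of these 4 genes lay between −0.10 (GSTP1) and 0.12 (TXNRD1), and none passed the test after loess. Under median centring all 4 did, against 19 of the 36 genes and 31.9% of all genes tested, and GSTP1 turned to 0.27. Of the other 7 genes with a core, GSTO1 and PGD passed there and GPX2, GSTA4, GSTM1, CBR1 and ME1 did not.

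The glutathione peroxidases GPX1 to GPX4, which reduce peroxides at the cost of glutathione, had means from −0.07 (GPX4, the enzyme that acts on lipid peroxides) to 0.08 (GPX2, the gastrointestinal form). The brighter probe of GPX1 had 0.02, 0.11, −0.12 and −0.15, and the other −0.06, 0.10, 0.01 and −0.03. Their means, −0.03 and 0.00, differed by less than the spread between arrays. Glutathione transferases couple glutathione to electrophiles. The 5 measured outside the wider list had means from −0.10 (GSTP1) to 0.14 (GSTM3), 4 above 0 and 1 below. Under median centring all 5 of these transferases and all 4 of these peroxidases were above 0. GSTM3 ran from 0.36 on array 1 to −0.08 on array 4. GSTP1 was close to 0 on arrays 1 and 2 (0.04 and 0.03) and at −0.24 on both of the others. Its 10 spots had an SD of 0.02 to 0.03 within an array, against 0.16 between arrays. Differences between cultures and between hybridisations cannot be told apart in this spread. GSTM1 has near-identical relatives in its cluster, and its probe may read several of them.

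The peroxiredoxins are abundant peroxide-reducing enzymes, and 4 were measured outside the wider list, which adds PRDX4 (mean −0.09). PRDX5, the form of mitochondria and peroxisomes, had log2 ratios of −0.16, −0.03, −0.18 and −0.30, below 0 on all 4 arrays. Its mean was −0.17 ± 0.11 (SD, n = 4 arrays; limma, adjusted p = 0.155). PRDX6, the form with a single active cysteine, had 0.22, 0.19, 0.07 and 0.11, above 0 on all 4 arrays. Its mean was 0.15 ± 0.07 (SD, n = 4 arrays; limma, adjusted p = 0.176). Neither passed the threshold. Under median centring PRDX5 moved to 0.05, and PRDX6 (0.50; limma, adjusted p = 0.000695), PRDX1 (0.30; 0.00941) and PRDX3 (0.20; 0.0361) passed it, the latter pair turning from below to above 0. PRDX3, the mitochondrial form, had a mean of −0.05. PRDX1, of the cytosol, had 0.06, −0.05, −0.23 and −0.03 at its brighter probe and 0.23, 0.11, −0.04 and 0.12 at the other. The probes differed in sign, with means of −0.06 ± 0.12 and 0.10 ± 0.11 (SD, n = 4 arrays each).

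CAT, catalase, which breaks down hydrogen peroxide in peroxisomes, had the lowest adjusted p of the 36 genes by limma after loess on all 4 arrays. Its log2 ratios were −0.09, −0.19, −0.37 and −0.18. All 4 arrays lay below 0, with a mean of −0.21 ± 0.12 (SD, n = 4 arrays), a 95% interval of −0.34 to −0.07 and an adjusted p of 0.0901 from limma. The SD between the 10 spots of an array was 0.06 to 0.09. The superoxide dismutases SOD1, of the cytosol, and SOD2, of mitochondria, both had a mean of −0.03, and both turned above 0 under median centring (0.27 and 0.10). There SOD1 (limma, adjusted p = 0.0482) and CAT (−0.21, limma, adjusted p = 0.0275) passed the threshold, and SOD2 did not. After loess SOD1 ran from 0.22 on array 1 to −0.32 on array 4.

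Of the carbonyl reductases among the 36 genes, AKR1B10, AKR1C1 and AKR1C3 are aldo-keto reductases and well-known NRF2 targets. As a group the carbonyl reductases had the highest median SD between arrays (0.35). Single genes differed, with 0.17 for CBR1, and TXN of the thioredoxin group had 0.36. AKR1C3 had log2 ratios of 1.01, 0.01, 0.32 and 0.03. Array 1 stood far above the others, and the mean of 0.34 ± 0.47 (SD, n = 4 arrays; limma, adjusted p = 0.183) was smaller than the SD. In deposited intensities, before any correction, AKR1C3 read 1789 in SB and 424 in SCt cells on array 1, and 831 and 539 on array 2. The median signal was also higher in red (SB) than in green (SCt), at 733 against 362 on array 1 and 683 against 444 on array 2. AKR1C1 had 0.82, −0.18, 0.16 and −0.08, with a mean of 0.18 ± 0.45 (SD, n = 4 arrays; limma, adjusted p = 0.482). AKR1B10 had 0.58, −0.03, 0.12 and 0.28, with a mean of 0.23 ± 0.26 (SD, n = 4 arrays; limma, adjusted p = 0.160). CBR1, of another enzyme family, had 0.27 on array 1 and −0.11 to −0.02 on the others. In all 4 genes array 1 was the highest. The call of AKR1C3 changed with the normalization and with single arrays. Under median centring of all 4 arrays it passed the threshold (0.41; limma, adjusted p = 0.0381). Without replicate 4 its adjusted p from limma was 0.00230 at a mean of 0.44, and without replicate 1 the mean was 0.12 (limma, adjusted p = 0.461). Without replicate 4 it was the 1 gene of the 36 past an adjusted p of 0.05, against 6.58% of all genes tested. Over all alternatives the adjusted p of AKR1C3 lay between 0.00230 and 0.585, the latter by the methods' t-test. Without replicate 1, AKR1C1 had a mean of −0.03 and AKR1B10 one of 0.12.

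Other probes of AKR1B10 and AKR1C genes were also highest on array 1. The second probe of AKR1C1 had 0.76 on array 1 and 0.07 to 0.14 on the others, and the second probe of AKR1B10 had 0.69 on array 1 and −0.03 to −0.00 on the others. AKR1C4, a relative outside the list of 39 whose values were seen before it was chosen for mention, had 0.81 on array 1 at its brighter probe and 0.16 at the other. Of the 7 probes of these 4 genes all had their highest ratio on array 1 (0.16 to 1.01), and the other arrays lay between −0.18 and 0.32. Under median centring this held for 6 of 7, and under the software's ratios, the other background corrections and with outlier spots kept, for 7 of 7. It also held for 7 of 7 under the series table and Aquantile, but these nearly repeat the software's ratios and leave the loess ratios unchanged, respectively. AKR1A1, AKR1B1 and AKR7A2, of a wider pathway list, were not highest on array 1, and AKR7A3 had no value there. On array 1 AKR1A1 had its lowest ratio (−0.21) and AKR7A2 had −0.08, and AKR1B1 was highest on array 4 (0.18), with 0.16 on array 1. These were likewise named after their values were seen. The AKR1C genes are nearly identical in sequence, so their probes may read each other's transcripts and are uncertain as separate measurements.

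The high values on array 1 were not limited to aldo-keto reductases. Of the 36 genes, 22 (61.1%) had their highest log2 ratio on array 1, against 24.5% of the 23136 genes with values on all 4 arrays. The shares for arrays 2, 3 and 4 were 16.7%, 5.56% and 16.7%, against 17.2%, 31.4% and 26.9% of all genes. The median of the 36 genes was 0.12 on array 1, 0.02 on array 2, −0.02 on array 3 and −0.03 on array 4, while the median of all genes tested stayed between 0.00 and 0.02. On array 1, 26 of the 36 genes were above 0, against 50.9% of all genes, and on array 4, 16 were, against 52.2%. The count of genes highest on array 1 was 20 to 23 of 36 under the software's ratios, both other background corrections and with outlier spots kept. The series table, which nearly repeats the software's ratios, and Aquantile, which leaves ratios unchanged, gave 22 each and are no separate checks. Under median centring the count was 29 (80.6%), against 26.5% of all genes. Among those of the brightest 5871 genes that had values on all 4 arrays, the share was 45.9% under median centring and 24.8% after loess. Without replicate 1 the median of the 36 genes was −0.03. What sets array 1 apart was not tested. In the red channel, 85.8% of its spots passed the test against local background, within the 85.4% to 90.3% of the 4 arrays. In the green channel, which holds SCt RNA, array 1 was the lowest, with 84.7% against 85.9%, 90.0% and 88.7% on arrays 2 to 4, and with a median signal of 362 against 444, 588.5 and 400.75. The part of this in the ratios was not tested.

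Leaving the wider list aside, enzymes that supply NADPH had means from −0.13 (ME1, malic enzyme) to 0.04 (TALDO1, transaldolase), 3 of 4 below 0. The 10 such enzymes of the wider list lay between −0.48 (IDH1) and 0.12 (RPIA), 3 above 0 and 7 below. Under median centring PGD and TKT turned above 0 (0.20 and 0.23). After loess PGD, of the pentose phosphate pathway, had −0.05, and TKT, transketolase, −0.11. TKT was lowest on array 3 (−0.34). The ferritin genes FTH1 and FTL, which store iron, had means of 0.08 ± 0.09 and 0.14 ± 0.21 (SD, n = 4 arrays each; limma, adjusted p = 0.489 and 0.345). The 3 probes of FTH1 gave 0.04 to 0.09 and the 2 of FTL 0.11 and 0.14, and both genes were highest on array 1 (0.21 and 0.39). Without replicate 1 the means of FTH1 and FTL were 0.04 and 0.06, and without replicate 3 that of FTL was 0.22. Under median centring FTH1 (0.45, limma, adjusted p = 0.00219) and FTL (0.43, limma, adjusted p = 0.00561) passed the threshold. Ferritin has many processed copies in the genome, which a probe can also match. Over all 9 genes with several probes, the probes of a gene differed by at most 0.17 (PRDX1), below the 0.3 set for remark, and in 3 genes, MAFG, GPX1 and PRDX1, they differed in sign.

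Of the choices tried, the normalization altered these counts most. With median centring in place of loess, 19 of the 36 genes passed an adjusted p of 0.05 by limma, 18 above 0 and 1 (CAT) below, against 31.9% of all genes tested. The largest were PRDX6 (0.50), FTH1 (0.45), FTL (0.43) and TXNRD1 (0.42), all with an adjusted p under 0.01 by limma. The others above 0 were KEAP1, GCLM, GSR, GPX1, GPX4, GSTO1, GSTP1, TXN, PRDX1, PRDX3, SOD1, AKR1C3, PGD and TKT. Of the 36 means, 13 changed sign. Median centring leaves in place any difference between the dyes that grows with brightness, and 20 of the 36 genes lie among the 5871 brightest of those tested. The median log2 ratio of those 5871 was 0.20 under median centring and 0.00 under loess, while that of the other 17613 genes was 0.02 under both. Loess itself sets the median near 0 at every brightness. The median of the 36 genes under median centring was 0.19, and that of all genes tested 0.07, while 16 of the 36 genes lie outside the 5871 brightest. The part of brightness in the 19 calls was not tested.

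**Figure D2:**
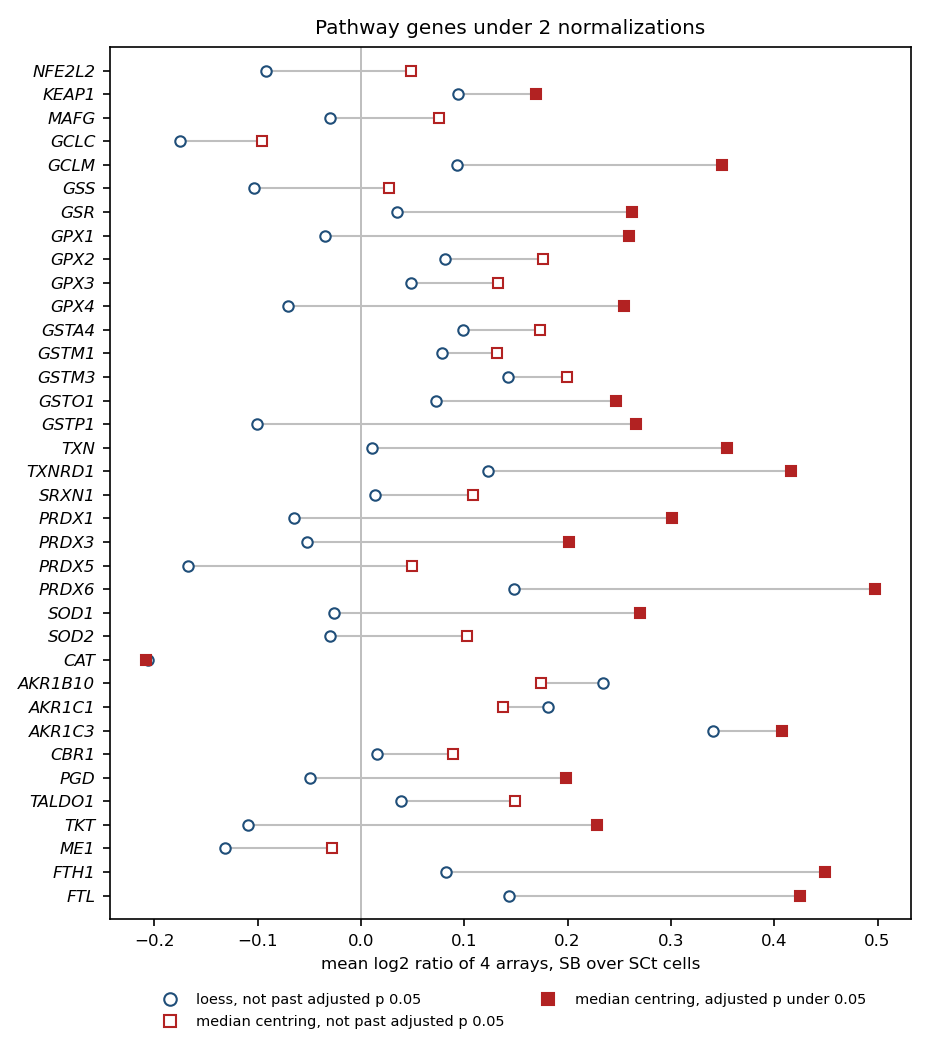
Mean log2 ratio of SB over SCt cells over 4 arrays (x axis) for the 36 genes (y axis) after loess (blue circles) and after median centring (red squares, filled where the adjusted p was under 0.05). After loess 0 genes pass the threshold and the means scatter around 0; after median centring 19 pass, 18 of them above 0.

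A wider list of 74 genes of the same pathways, chosen by function, was read beside the 36. Of these, 68 were matched and 65 tested; SLC3A2, GGT1, GSTA1, TXNRD3, TRIM16 and TRIM16L were not matched and not analysed here, and GPX5, GPX7 and MGST1 were too dim to be kept. Of the 65, 34 were above 0 and 31 below, with a median of 0.01, and 1 passed an adjusted p of 0.05 by limma, a share below the 3.51% of all genes tested. Under median centring 18 passed (14 higher and 4 lower), against 31.9% of all genes tested. Without replicate 4 the count was 6, against 6.58%, and without replicate 3 it was 0. The gene that passed after loess on all 4 arrays was IDH1, the cytosolic isocitrate dehydrogenase that makes NADPH, which fell in SB cells. Its log2 ratios were −0.59, −0.54, −0.64 and −0.17, below 0 on all 4 arrays with array 4 nearest to 0. The mean was −0.48 ± 0.21 (SD, n = 4 arrays; limma, adjusted p = 0.00532), a 1.40-fold lower level. Without replicate 3 the adjusted p from limma was 0.0981 at a mean of −0.43. By the methods' t-test, with adjustment over all kept probes, the adjusted p was 0.295. The methods state a threshold of p under 0.05 and name no adjustment. Over all alternatives the adjusted p of IDH1 lay between 1.31e-07 (without replicate 4) and 0.295, and its mean between −0.59 and −0.34 (median centring). Before any correction, the deposited intensity of IDH1 was higher in SB (red) than in SCt cells (green) on each array, with 3742 against 2640 on array 1. The median signal there was 733 in red against 362 in green. The other 64 genes lay between −0.18 and 0.29.

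The standard reporters of NRF2 activity in the wider list had means near 0 after loess, which under median centring were 0.09 for NQO1 and 0.18 for HMOX1 (limma, adjusted p = 0.417 and 0.0592). NQO1, a quinone reductase, had log2 ratios of 0.33, −0.11, −0.20 and 0.01, again highest on array 1, with a mean of 0.01 ± 0.23 (SD, n = 4 arrays; limma, adjusted p = 0.966). Its mean was −0.10 without replicate 1. HMOX1, which degrades heme, had −0.02, −0.07, 0.18 and −0.03, with a mean of 0.02 ± 0.11 (SD, n = 4 arrays; limma, adjusted p = 0.917). Their 95% intervals were −0.16 to 0.18 and −0.12 to 0.15.

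**Figure D3:**
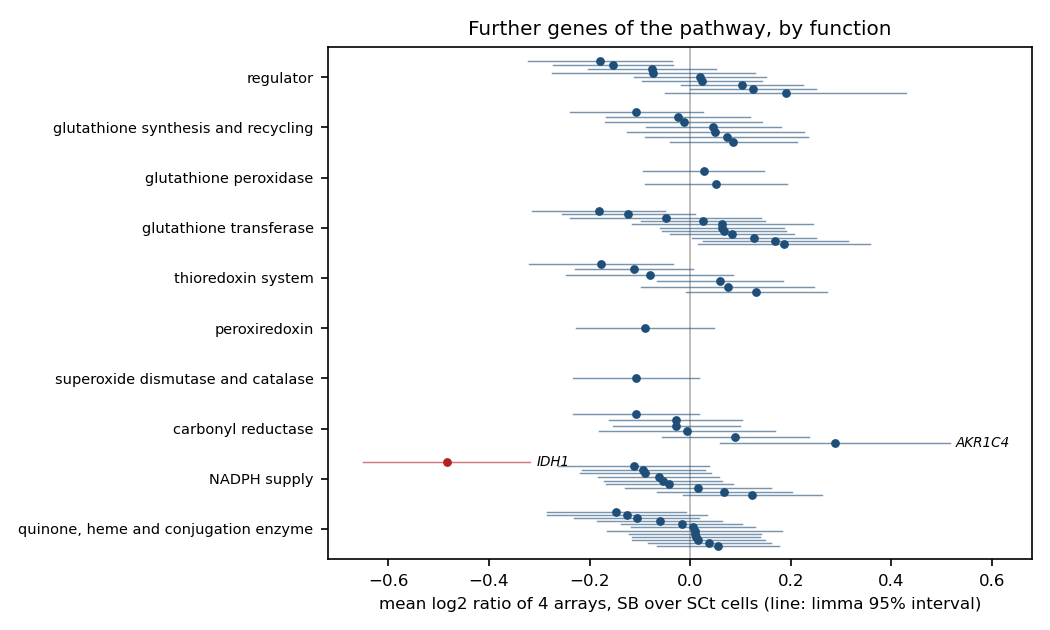
Mean log2 ratio of SB over SCt cells over 4 arrays (x axis; lines are limma 95% intervals) for the 65 tested genes of the wider list, in rows by function (y axis). IDH1 (red, −0.48) is the gene past an adjusted p of 0.05; AKR1C4 has the highest mean (0.29) and did not pass it.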

How the data were processed

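RNA of SB and SCt cells was compared on 4 arrays, 1 ratio per array. For each array the authors deposited red and green median intensities with local background (Agilent Feature Extraction 10.5.1.1, per the labels). The same deposited files hold the software's background-subtracted, dye-normalized ratio on a log10 scale. The authors also deposited a series table, which proved to hold log2 ratios of SB over SCt cells; its medians were −0.02, 0.02, 0.01 and 0.01, and 98.7% to 99.1% of its values lay within 0.001 of the software's ratios.

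In R 4.3.3 with limma 3.58.1, intensities were corrected by normexp (offset 50) on 44495 spots, 1377 control spots were removed, outlier spots (814 to 1168 per array) were left out, and loess was run within each array. The offset shrinks ratios of weak spots. Spots of a probe were averaged, and a probe was kept when 1 of its channels passed the software's test against background on each of the 4 arrays and at least 2 values remained (28505 of 34127). LmFit and eBayes tested each mean against 0, with Benjamini-Hochberg adjustment over all kept probes. Genes were named through RefSeq accessions (24826 probes matched; the other 9301 kept their identifier), and each took its brightest probe. Such identifiers, where kept, were counted among the genes tested. Precision is limited by the number of arrays; with 4 arrays an exact sign-flip test (both directions) cannot go below 0.125. The steps were tested on simulated data.

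Members and lists were chosen with earlier results of these data known. By a rule, every member is named, and values on each array are given for NFE2L2, KEAP1, GCLM, TXNRD1, NQO1 and HMOX1 whatever their values, for AEG-1, for any gene of the lists past the threshold, and for members whose probes differ in sign. Values on single arrays of all other genes were chosen after they were seen. Alternatives tried were median centring, ratios from the software or the series table, other background corrections and filters, Aquantile, keeping outlier spots, trend and robust options in eBayes, a t-test as in the methods, leaving out 1 array, and other rules for genes with several probes.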

Additional observations from a re-analysis of the deposited data

Results flagged for a closer look

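In 4 of 61 sets of 4 values examined (probes of the named genes, and medians by role), 1 array lay far from the others by Dixon's ratio of gap to range (95% critical value). Chance gives this in about 5% of sets, and 5.12% of the 23136 genes with values on all 4 arrays showed it. The far array was array 1 in 1.08% of these genes, array 2 in 0.61%, array 3 in 2.03% and array 4 in 1.41%. The second probe of AKR1B10 had a log2 ratio of 0.69 on array 1, against −0.03 to −0.00 on the others. The second probe of AKR1C1 had 0.76 on array 1, against 0.07 to 0.14. Another probe of FTH1 had 0.31 on array 1, against 0.00 to 0.03. The median of the 4 peroxiredoxins measured outside the wider list was −0.21 on array 3, against 0.00 to 0.02 on the others. PRDX4, of the wider list, was not part of this median. The reasons were not tested.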

How the results depend on the processing

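AEG-1 was past an adjusted p of 0.05 and lower in SB cells under all alternatives, between −3.24 and −3.06, except that the methods' t-test, at −3.18, gave an adjusted p of 0.143 (the others 6.45e-30 to 2.26e-05). The methods name no adjustment for this t-test. Under median centring in place of loess, 19 of the 36 genes were past the threshold (18 higher and 1 lower), their median was 0.19, and 18 genes of the wider list (14 higher and 4 lower) and 7500 of all genes (4876 higher and 2624 lower, against 295 and 530 after loess) were past it. There GPX1 (0.26), GPX4 (0.25), GSTP1 (0.27), PRDX1 (0.30), PRDX3 (0.20), SOD1 (0.27), PGD (0.20) and TKT (0.23) turned from below to above 0. The software's ratios and the series table each called 2 genes of the wider list, IDH1 and SOD3 (−0.35, named after its value was seen), and the series table called 529 of all genes. EBayes with trend and robust options called 445 of all genes, and the methods' t-test 0 of all genes (3207 at an unadjusted p under 0.05) and 0 of the wider list. The cause was not tested.

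Leaving out 1 array at a time, the genes past the threshold numbered 0 to 1 of the 36, 0 (without replicate 3) to 6 (without replicate 4) of the wider list, and 156 (without replicate 3) to 1544 (without replicate 4) of all genes, with 495 without replicate 1 and 332 without replicate 2. The median of the 36 genes then ranged from −0.03 (without replicate 1) to 0.05, and AEG-1 from −3.24 to −3.10. Under the other alternatives 0 of the 36 genes were called. Aquantile changes brightness and not the ratio, so it gave the same values. The test was already a paired one, because each ratio compares both RNAs of 1 replicate number on 1 array. Each of the 36 genes passed the test against background in red and green on every array, but weak signal still limits some ratios: AKR1B10 on array 4 read 66.5 in SCt cells against a background of 31, and its mean of 0.23 was 0.33 with a normexp offset of 0.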

Other observations

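In the wider list, 24 of the 64 genes with values on all 4 arrays (37.5%) had their highest log2 ratio on array 1, against 61.1% of the 36 NRF2 and glutathione genes and 24.5% of all genes. Its median was 0.04 on array 1, 0.02 on array 2, −0.05 on array 3 and −0.04 on array 4. The SD of log2 ratios between arrays had a median of 0.126 across the 36 genes, beside 0.112 over all genes with 4 values.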
